A study of Mus musculus with 6 samples.

Results

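Lysine deacetylases remove acetyl groups from histones and many other proteins, and here the mRNA levels of 10 of them were followed in BM HSCs: the zinc-dependent enzymes Hdac1, Hdac2, Hdac3, Hdac5 and Hdac7 and the sirtuins Sirt1, Sirt2, Sirt3, Sirt6 and Sirt7. They were chosen by gene symbol, and all 10 were found among the 21878 rows listed for each library. Bulk RNA-seq was made from HSCs sorted from mouse BM as CD34- Flk2- Lineage- Sca1+ c-Kit+ cells, in 3 libraries from vehicle-treated mice (control) and 3 from mice that had received recombinant mouse IGF1 subcutaneously, once at 200 µg/kg, sampled at day 1. All mice are labelled WT, their age is not given in the sources used here, and nothing says whether libraries of a group came from separate or pooled mice, so p-values measure the spread between these libraries, which may be technical. IGF1 is named by the treatment label, by the series design and by the study, whereas the labelled extraction text speaks of irradiated mice; the treatment label was followed.

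The zinc-dependent enzymes fall into classes. Class I enzymes are nuclear: Hdac1 and Hdac2 are interchangeable catalytic subunits of the SIN3, NuRD and CoREST corepressor complexes, and Hdac3 works in the NCoR complex. Class IIa enzymes such as Hdac5 and Hdac7 shuttle between nucleus and cytoplasm, bind MEF2 transcription factors and have little catalytic activity of their own. Sirtuins use NAD as a cosubstrate. Sirt1 and Sirt6 are nuclear, Sirt7 is nucleolar, Sirt2 is mainly cytosolic and Sirt3 is mitochondrial, and in HSCs sirtuins have been studied in stress resistance, mitochondrial function and aging. In mice, joint loss of Hdac1 and Hdac2, or loss of Hdac3, impairs HSCs.

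Values are FPKM, in which the fragments of a gene are divided by its length and by library depth, so levels of different genes can be compared. Reads on listed genes came to between 10298069 and 15090863 per library. The libraries did not split cleanly by treatment. Of the genes with at least 20 reads in a pair of libraries, 142 differed more than 2-fold between control replicates 1 and 3, whereas 4132 and 4138 did so between control replicate 2 and either of them, and between 884 and 945 between control replicate 2 and an IGF1 library. The IGF1 libraries differed from each other in 146 to 158 genes. Summed FPKM moved the same way, at 466619 and 466135 in control replicates 1 and 3, 635111 in control replicate 2 and between 677826 and 680285 in the IGF1 libraries. Whether the library labelled control replicate 2 carries the right label cannot be told from the files. It was kept in its labelled group, so control means, fold changes and calls depend on it, and the tested genes and lists are therefore given with and without it. Of 15 HSC identity markers, 13 reached at least 1 FPKM in 3 libraries, and Kit and Ly6a (Sca1) were well expressed. Cd34 and Flt3, whose proteins the sort selected against, stood at 230 to 640 and 117 to 188 FPKM. Fewer cells of a type and less RNA per cell cannot be told apart in bulk libraries.

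To show the start regions of a gene that fell and of 2 whose groups stood apart in the other direction, 250 bases upstream of a RefSeq start of Hdac2, Hdac7 and Sirt6 are printed below, 5′ to 3′ on the gene's strand (build GRCm38.p6, for genes with several starts the most upstream). Capitals mark a GC box, the Sp1 motif GGGCGG or its reverse complement. The Hdac2 window (chr10:36974294-36974543, plus strand) had 68.8% GC and 27 CpG sites. The Hdac7 window (chr15:97844503-97844752, minus strand) had 56.4% GC and 6 CpG sites, and the Sirt6 window (chr10:81627567-81627816, minus strand) had 56.8% GC and 13 CpG sites.
Hdac2: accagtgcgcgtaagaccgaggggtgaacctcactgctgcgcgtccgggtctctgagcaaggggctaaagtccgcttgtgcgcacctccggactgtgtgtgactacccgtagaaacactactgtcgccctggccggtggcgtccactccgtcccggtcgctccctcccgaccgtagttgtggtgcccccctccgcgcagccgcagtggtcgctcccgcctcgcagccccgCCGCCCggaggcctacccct
Hdac7: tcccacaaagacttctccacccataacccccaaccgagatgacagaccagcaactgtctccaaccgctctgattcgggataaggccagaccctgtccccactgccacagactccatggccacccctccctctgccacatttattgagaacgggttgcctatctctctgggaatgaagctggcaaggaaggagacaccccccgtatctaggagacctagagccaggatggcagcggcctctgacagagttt
Sirt6: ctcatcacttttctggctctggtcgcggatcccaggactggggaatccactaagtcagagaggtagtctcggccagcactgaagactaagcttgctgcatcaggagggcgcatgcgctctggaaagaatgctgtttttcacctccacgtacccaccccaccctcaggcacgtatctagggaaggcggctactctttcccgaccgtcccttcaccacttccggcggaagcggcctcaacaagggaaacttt
Over all 32851 such windows the medians were 52.4% GC and 6 CpG sites. On both strands, GGGCGG was found in 32.7% of windows, the NF-Y motif CCAAT in 33.8% and the E-box CACGTG in 6.0%. Of 13 windows matched to 8 of the 10 genes (all except Hdac1 and Hdac3), that of Sirt1 held the most motifs, 6 GC boxes and 2 E-boxes, at 79.2% GC. A motif match describes letters only and was not tied to a difference in expression.

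The first question was whether any of these enzymes differed between HSCs of IGF1- versus vehicle-treated mice. Hdac2 and Hdac3 fell, and they were the 2 of 10 genes called by limma at a fold change over 2 and an adjusted p under 0.05. Lower calls made up 4.63% of the 10449 genes tested. None of the 10 genes was called higher, against 1.98% of all genes. An unadjusted p under 0.05 was found for 7 of the 10, as for 53.4% of all genes. That share is the one to hold against each such count from all 6 libraries below. A limma-voom fit to recovered reads also called 2 lower and 0 higher, where it called 651 lower and 402 higher of 10426 genes. With adjusted p alone, Sirt6 joined them, giving 3 of 10 against 20.4% of all genes. Groups did not overlap for 9 of the 10, with 4 lower in every IGF1 library (Hdac1, Hdac2, Hdac3 and Sirt1) against a background of 37.4%, and 5 higher (Hdac7, Sirt2, Sirt3, Sirt6 and Sirt7) against 21.9%. The median log2 fold change was 0.15 over the 10 genes and -0.18 over all genes, and 0.13 and -0.24 without control replicate 2.

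Without control replicate 2, limma called 4 of the 10 genes. Hdac1, Hdac2 and Hdac3 were lower, where 20.6% of all genes were called lower, and Hdac7 was higher, where 12.3% were called higher. In that fit 9 of the 10 genes had an adjusted p under 0.05, as did 88.5% of all genes, so the share among these enzymes was close to that of the whole transcriptome. Leaving out any one of the other 5 libraries in turn left 0 of the 10 genes called by limma, with 3 at an unadjusted p under 0.05 each time. Of all 10449 genes, 2982 to 3205 had an unadjusted p under 0.05 in those fits.

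**Figure D1:**
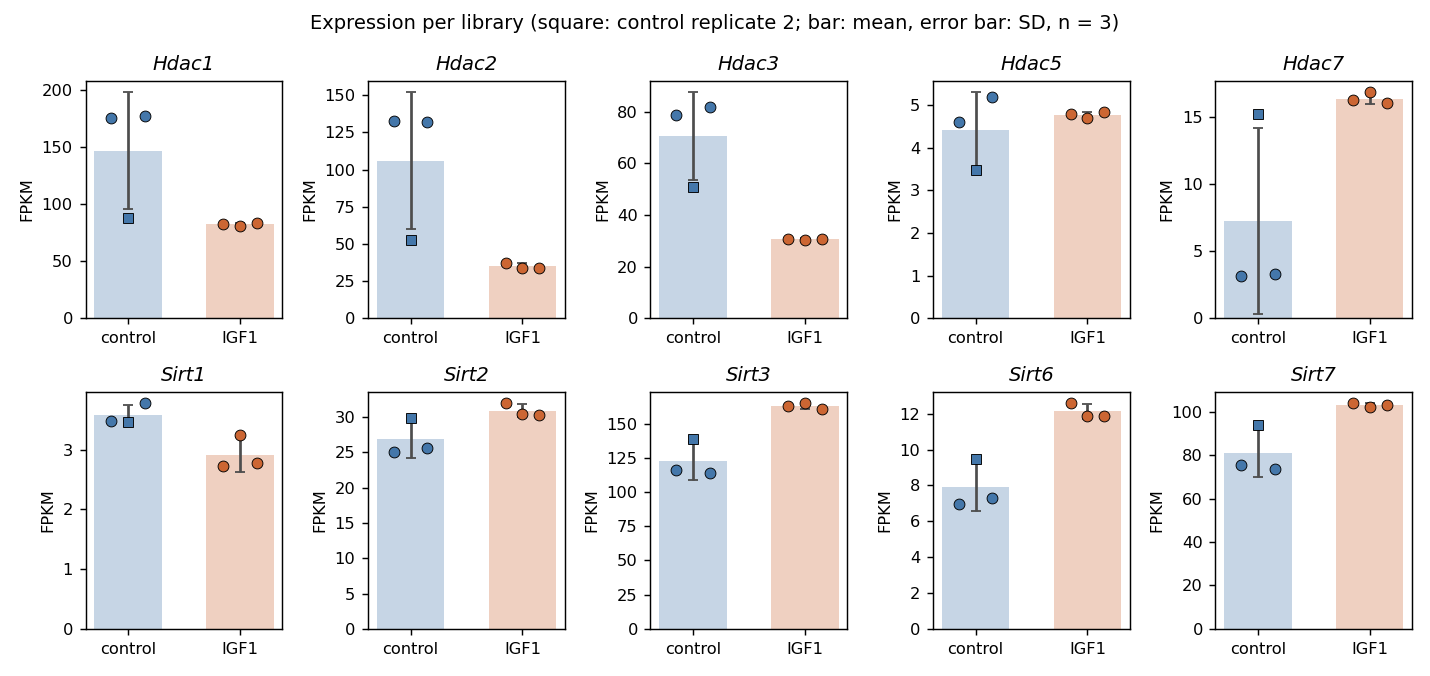
FPKM of the 10 genes in each library, with 1 panel per gene, its own linear axis from 0, control libraries in blue and IGF1 libraries in orange. Bars give the mean and error bars the SD of 3 libraries, and the square marks control replicate 2, which sits beside the IGF1 libraries for Hdac1 (87.3 FPKM) and Hdac7 (15.2 FPKM) and below every other library for Hdac5 (3.48 FPKM).

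Hdac2 showed the larger of the 2 falls. It lies at chr10:36974544-37001889 on the plus strand (GRCm38). Its level was 133, 52.6 and 132 FPKM for control replicates 1, 2 and 3, against 37.2, 33.9 and 34 FPKM for the corresponding numbers of the IGF1 group. All IGF1 libraries lay below all controls, and control replicate 2 lay between the groups, nearer to the IGF1 libraries. The means were 106 ± 46.3 and 35.0 ± 1.88 FPKM (SD, n = 3), a log2 fold change of -1.45 (SE 0.37, limma adjusted p = 0.0467). It was -1.89 without control replicate 2 (adjusted p = 1.65e-10). Each library held between 857 and 4763 recovered reads on Hdac2. The call was lost whenever a library other than control replicate 2 was left out (adjusted p 0.156 to 0.164), and with no filter (0.0567), quantile normalization (0.0535) or scaling to a common sum (0.0525). Once trends on transcript length and GC content were removed, the log2 fold change was -0.94 (adjusted p = 0.0476), under the fold threshold.

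Hdac3, the catalytic subunit of the NCoR complex, lies at chr18:37935844-37955016 on the minus strand. It stood at 78.7, 50.8 and 81.7 FPKM in the controls against 30.8, 30.2 and 30.8 FPKM in the IGF1 libraries. Here control replicate 2 fell about midway, and the 3 IGF1 libraries were almost identical. The means were 70.4 ± 17.0 and 30.6 ± 0.359 FPKM (SD, n = 3), with a log2 fold change of -1.15 (SE 0.20, limma adjusted p = 0.0318) and of -1.36 without control replicate 2 (adjusted p = 3.94e-10). Leaving out any other library gave an adjusted p between 0.141 and 0.164. Under quantile normalization, 75th percentile scaling, median ratio scaling and removal of length and GC trends, the log2 fold change lay between -0.99 and -0.79, short of 2-fold, with adjusted p between 0.0262 and 0.0345.

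Hdac1, the partner and paralog of Hdac2, lies at chr4:129516104-129542713 on the minus strand. Its level was 175, 87.3 and 177 FPKM in the controls against 82.2, 80.3 and 83.5 FPKM in the IGF1 libraries. Groups did not overlap, but control replicate 2 was within a few FPKM of the IGF1 libraries. The log2 fold change was -0.76 (SE 0.29, limma adjusted p = 0.081), so Hdac1 was not called, and it was -1.10 without control replicate 2 (adjusted p = 4.93e-10). The genome holds 4 annotated near copies of Hdac1 that are not listed in the files, the closest being Gm10093 with 99.4% identity over 1444 bases, followed by AC125456.1 (96.3%), Gm4864 (94.6%) and Gm21834 (90.1%). How reads shared with them were assigned is not given in the sources used here, so the Hdac1 values are uncertain.

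The class IIa enzyme Hdac7 had the highest log2 fold change of the 10, and its values turned on a single control library. Hdac7 (chr15:97792664-97844502, minus strand) stood at 3.15, 15.2 and 3.32 FPKM for control replicates 1, 2 and 3, against 16.2, 16.8 and 16 FPKM in the IGF1 libraries. Control replicate 2 was just below the IGF1 libraries and far above the other controls. The log2 fold change was 1.39 (SE 0.54, limma adjusted p = 0.0843), which was not called, and 2.03 without control replicate 2 (adjusted p = 4.56e-10).

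Its class IIa relative Hdac5 (chr11:102194432-102230166, minus strand) did not separate the groups. It stood at 4.61, 3.48 and 5.2 FPKM in the controls against 4.8, 4.71 and 4.84 FPKM in the IGF1 libraries, which lay within the range of the controls. The log2 fold change was 0.10 (SE 0.15, limma adjusted p = 0.572), and -0.03 without control replicate 2 (adjusted p = 0.715).

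Among the sirtuins no gene was called, and 4 of 5 were higher in every IGF1 library than in any control, as were 21.9% of all genes. Sirt6 (chr10:81621785-81627797, minus strand), a chromatin deacetylase that acts in DNA repair and glucose metabolism, stood at 6.98, 9.49 and 7.33 FPKM in the controls. It stood at 12.6, 11.9 and 11.9 FPKM in the IGF1 libraries, all above the highest control. Its log2 fold change of 0.57 (SE 0.14, limma adjusted p = 0.0459) was short of 2-fold, and it was 0.69 without control replicate 2 (adjusted p = 1.31e-06). Once trends on transcript length and GC content were removed, the Sirt6 log2 fold change was 0.22 (adjusted p = 0.1). After scaling to a common sum it was also 0.22 (adjusted p = 0.202). Under the other scalings it lay between 0.77 and 0.85 (adjusted p 0.0413 to 0.043). With no filter its adjusted p was 0.0531.

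Sirt3 (chr7:140863666-140882309, minus strand), the main mitochondrial deacetylase, was the most abundant sirtuin. It stood at 116, 139 and 114 FPKM in the controls against 163, 165 and 161 FPKM in the IGF1 libraries. The groups were separate, with control replicate 2 about midway, and the log2 fold change was 0.41 (SE 0.12, limma adjusted p = 0.0543). Sirt7 (chr11:120618372-120625240, minus strand), which acts on rRNA transcription, stood at 75.5, 93.8 and 73.5 FPKM in the controls against 104, 102 and 103 FPKM in the IGF1 libraries. These groups were also separate (log2 fold change 0.35, SE 0.13, adjusted p = 0.0725). Without control replicate 2 the log2 fold changes were 0.50 for Sirt3 (adjusted p = 6.95e-08) and 0.46 for Sirt7 (adjusted p = 2.76e-07).

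Sirt2 (chr7:28766735-28788661, plus strand), a tubulin deacetylase, was at 25, 29.9 and 25.6 FPKM in the controls against 32, 30.5 and 30.3 FPKM in the IGF1 libraries. The gap between the groups was under 1 FPKM, and the log2 fold change was 0.20 (SE 0.11, limma adjusted p = 0.165). Sirt1 (chr10:63319005-63381704, minus strand), which deacetylates p53 and FOXO factors, had the lowest mean of the 10 in both groups. Hdac7 was below it in control replicates 1 and 3 (3.15 and 3.32 FPKM). Sirt1 was the only sirtuin of the 5 that was lower. It was at 3.48, 3.46 and 3.78 FPKM in the controls against 2.72, 3.25 and 2.78 FPKM in the IGF1 libraries. The groups did not overlap, by a narrow margin (log2 fold change -0.22, SE 0.11, adjusted p = 0.138). Between 66 and 119 recovered reads per library lay on Sirt1, fewer than on any other of these genes, which limits its precision. Without control replicate 2 the log2 fold changes were 0.28 for Sirt2 (adjusted p = 0.000163) and -0.24 for Sirt1 (adjusted p = 0.0196).

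**Figure D2:**
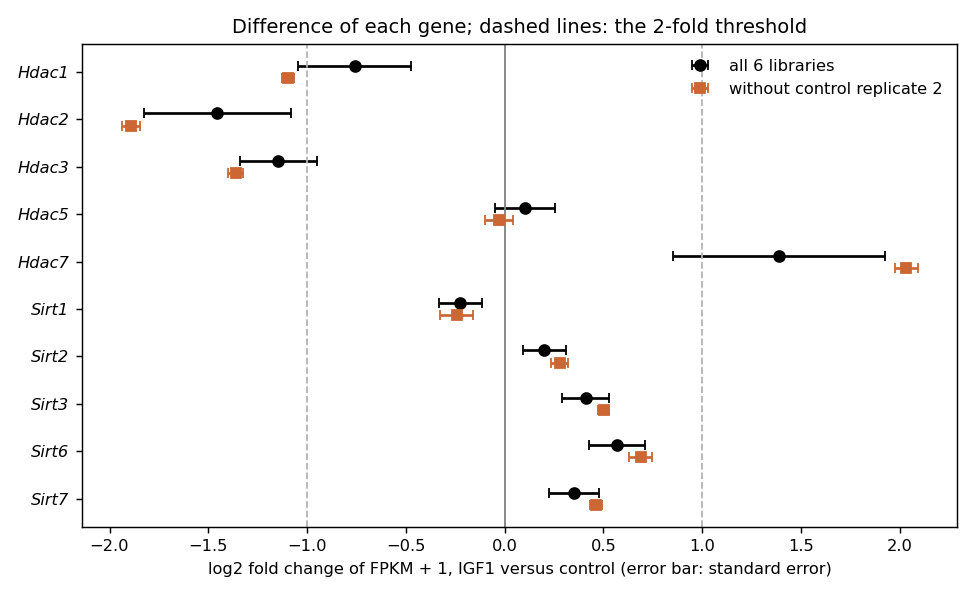
Log2 fold change of FPKM + 1 in IGF1 versus control libraries (x axis) for each gene, in black with all 6 libraries and in orange without control replicate 2, with error bars giving the standard error. The class I genes Hdac1, Hdac2 and Hdac3 lie left of 0 and Hdac7 and 4 of 5 sirtuins right of it, and the errors shrink once control replicate 2 is left out, from 0.37 to 0.05 for Hdac2.

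Control replicate 2 did not sit at one place between the groups. On a scale with 0 at the IGF1 mean and 100 at the mean of control replicates 1 and 3, it lay at 4.59 for Hdac7 and 8.13 for Hdac1, close to the IGF1 libraries. It lay at 16.2 for Sirt2, 28.6 for Sirt7, 30.4 for Hdac2, 45.0 for Sirt3, 47.2 for Sirt6, 52.4 for Hdac3 and 77.9 for Sirt1, while for Hdac5 the groups were too close for a position. The median over the 3438 genes more than 2-fold apart was 19.9. The place of control replicate 2 sets the spread of the controls, so it enters each adjusted p with all 6 libraries. Hdac3, Sirt6 and Hdac2, which had the smallest of these, lay above that median, but so did Sirt1, Sirt3 and Sirt7. Hdac1, Hdac7 and Sirt2 lay below it.

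Several of these genes overlap a neighbour, and although the library kit marks strand, the strand setting of the counting is not given in the sources used here. Sirt3 shares 418 exonic bases with Ric8a and 342 with Psmd13, both on the opposite strand, so reads from either could count towards it if strand was ignored. Ric8a was at 48.1, 25.4 and 52.9 FPKM in the controls against 25.2, 24.8 and 24.7 FPKM in the IGF1 libraries, and Psmd13 had a log2 fold change of -0.26. The part of such reads in the Sirt3 values was not tested. Sirt7 shares 124 bases on the same strand with Mafg (log2 fold change 0.29, limma adjusted p = 0.218). Sirt2 shares 42 bases with Nfkbib (0.48, adjusted p = 0.145) and Hdac7 29 with Slc48a1 (-0.31, adjusted p = 0.0547). Gm16145 (antisense to Sirt1) and the miRNA genes Mir8101 in Hdac5 and Mir6936 in Sirt7 are not listed in the files.

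The order of levels differed between the groups. In control libraries the mean FPKM ran from Hdac1 (147) through Sirt3 (123), Hdac2 (106), Sirt7 (80.9), Hdac3 (70.4), Sirt2 (26.9), Sirt6 (7.93), Hdac7 (7.24) and Hdac5 (4.43) to Sirt1 (3.57). With control replicate 2 included, neighbours in this order overlapped except Hdac3 against Sirt2 and Sirt2 against Sirt6. In IGF1 libraries it ran from Sirt3 (163) and Sirt7 (103) through Hdac1 (82.0), Hdac2 (35.0), Sirt2 (30.9), Hdac3 (30.6), Hdac7 (16.3), Sirt6 (12.2) and Hdac5 (4.78) to Sirt1 (2.92). There, of all neighbours, only Sirt2 and Hdac3 overlapped. The control order depended on control replicate 2. In control replicates 1 and 3, Hdac2 (133 and 132 FPKM) stood above Sirt3 (116 and 114 FPKM). In the same libraries Hdac3 (78.7 and 81.7 FPKM) stood above Sirt7 (75.5 and 73.5 FPKM). Hdac7 (3.15 and 3.32 FPKM) was the lowest there, below Sirt1 (3.48 and 3.78 FPKM).

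Summed over all 18 enzymes of both families, the balance between classes differed. Class I (Hdac1, Hdac2, Hdac3 and Hdac8) summed to 390, 192 and 394 FPKM in the controls and to 151, 146 and 149 FPKM in the IGF1 libraries. The 7 sirtuins summed to 239, 287 and 237 FPKM in the controls and to 327, 325 and 322 FPKM in the IGF1 libraries. Class I exceeded the sirtuins in control replicates 1 and 3 and fell short of them in the other 4 libraries. As a share of the summed FPKM of the 18, which a scaling factor per library cannot move, class I made up 56.7%, 36.2% and 56.9% in the controls and 28.3%, 27.5% and 28.2% in the IGF1 libraries. Sirtuins made up 34.8%, 54.2% and 34.2% and then 61%, 61.4% and 61%. The groups did not overlap for either share. Class IIa was a minor part, at 12, 23.2 and 12.8 FPKM in the controls against 26.7 to 27.4 FPKM in the IGF1 libraries.

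**Figure D3:**
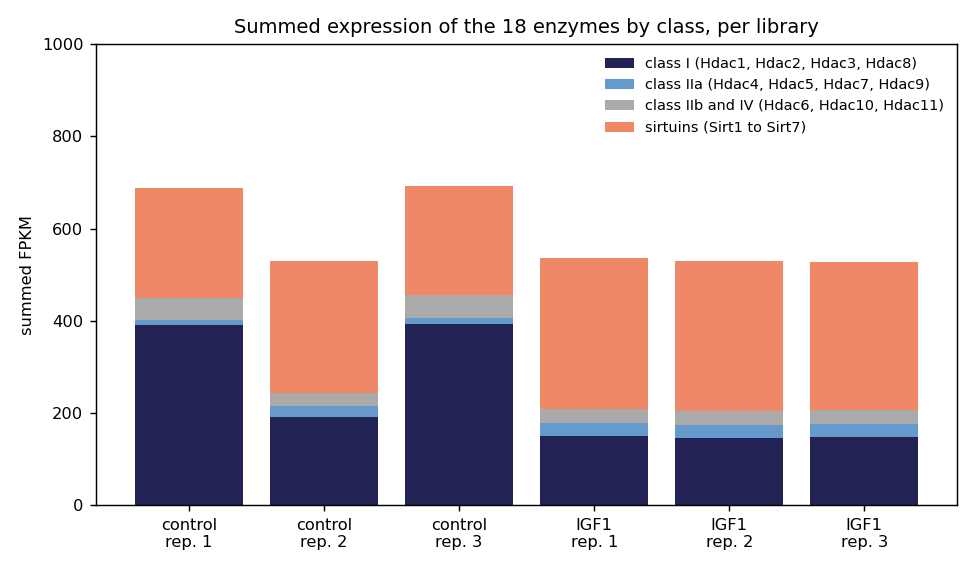
Summed FPKM of the 18 histone deacetylases and sirtuins in each library (y axis), stacked by class. The dark class I segment is 390 and 394 FPKM high in control replicates 1 and 3, 192 FPKM in control replicate 2 and 146 to 151 FPKM in the IGF1 libraries, and the orange sirtuin segment is tallest in the IGF1 libraries.

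Ratios between family members within a library were compared in 5 pairs with an exact two-sided permutation test over the 20 arrangements of the libraries, for which the smallest possible p is 0.1. Hdac1 exceeded Hdac2 1.31-, 1.66- and 1.34-fold in the controls and 2.21-, 2.37- and 2.46-fold in the IGF1 libraries, a difference of 0.69 in log2 of FPKM + 1 (exact permutation p = 0.1, 0.125 after adjustment over the 5 ratios). Hdac2 was thus lower relative to its paralog in all 3 IGF1 libraries. The Hdac3 to Hdac1 ratio was 0.449, 0.582 and 0.461 in the controls and 0.375, 0.376 and 0.369 in the IGF1 libraries (-0.39 on the log2 scale). Sirt6 to Sirt1 was 2.01, 2.75 and 1.94 against 4.63, 3.65 and 4.3 (0.79), and Sirt7 to Sirt1 was 21.7, 27.1 and 19.5 against 38, 31.4 and 37.1 (0.58). These 3 ratios also did not overlap between the groups (exact permutation p = 0.1 each, 0.125 adjusted). The Hdac5 to Hdac7 ratio was 1.46, 0.228 and 1.56 in the controls and 0.296, 0.28 and 0.303 in the IGF1 libraries, with control replicate 2 below all of them (exact permutation p = 0.4, 0.4 adjusted). Without that library this difference was -2.06 on the log2 scale, against -1.28 with it, and the groups no longer overlapped (exact permutation p = 0.1, the smallest that 5 libraries allow). The other 4 ratios then differed by 0.80 for Hdac1 to Hdac2, -0.27 for Hdac3 to Hdac1, 0.93 for Sirt6 to Sirt1 and 0.70 for Sirt7 to Sirt1, each with an exact permutation p of 0.1. With length and GC trends removed, the differences came to 0.25 for Hdac1 to Hdac2, -0.10 for Hdac3 to Hdac1, 0.03 for Sirt6 to Sirt1 and 0.16 for Sirt7 to Sirt1. That of Hdac5 to Hdac7 was -1.30. The exact permutation p was then 0.1 for Hdac1 to Hdac2 only. It was 0.2 for Sirt7 to Sirt1, 0.4 for Hdac5 to Hdac7, 0.8 for Sirt6 to Sirt1 and higher still for Hdac3 to Hdac1.

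The scaling of the libraries moved all genes together. Over all genes the log2 fold changes had a median of -0.18 with FPKM as deposited, -0.01 after quantile normalization, 0.04 after scaling to the 75th percentile, 0.01 after median ratio scaling and -0.55 after scaling each library to a common sum. The share of calls in the higher direction went with it, from 30.0% of 691 calls as deposited to between 53.5% and 56.7% under the first 3 of these and 12.8% under the last. Relative to the median of all genes, Hdac2 was at -1.28 as deposited and between -1.38 and -1.24 under these 4 scalings, and Hdac3 was at -0.97 as deposited and between -0.99 and -0.94. In log2 fold change, Hdac1, Hdac2 and Hdac3 were lower and Hdac7 and Sirt6 higher under every scaling tried. Sirt3 was higher too, except that scaling to a common sum left it near 0, at 0.02 (limma adjusted p = 0.88). Sirt6 was then at 0.22 (adjusted p = 0.202). The direction of Hdac5, Sirt2 and Sirt7 flipped after scaling to a common sum, and that of Hdac5 and Sirt1 after removal of length and GC trends. Relative to the median of all genes, the common sum left Hdac5, Sirt2 and Sirt7 above it, at 0.31, 0.37 and 0.51.

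**Figure D4:**
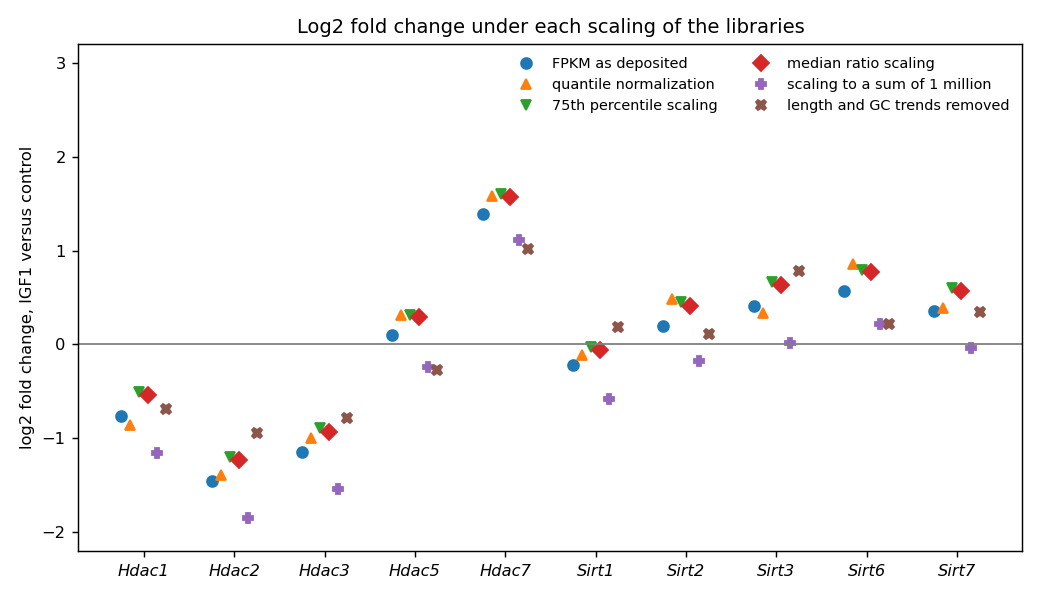
Log2 fold change in IGF1 versus control libraries (y axis) of each gene, with 1 symbol for FPKM as deposited and 1 for each other scaling or correction. The symbols of Hdac1, Hdac2 and Hdac3 all lie below 0 and those of Hdac7, Sirt3 and Sirt6 all above it. The lowest symbol of Sirt3 is near 0, at 0.02 after scaling to a common sum. Hdac5, Sirt1, Sirt2 and Sirt7 have symbols on both sides.

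Calls in the lists that follow stand against 1.98% of all genes called higher and 4.63% called lower with all 6 libraries. Without control replicate 2 these shares were 12.3% and 20.6%. The other 8 enzymes of the families were followed in the same way. Of the 7 that could be tested, limma called 0 (2 at an unadjusted p under 0.05, and 0 called by limma-voom), and without control replicate 2 it called Hdac11 higher and Hdac6 lower. Hdac11, the class IV enzyme, stood at 1.58, 4.73 and 1.43 FPKM in the controls against 5.57, 6.44 and 5.66 FPKM in the IGF1 libraries (log2 fold change 1.06, adjusted p = 0.0619). Hdac6, a cytoplasmic tubulin deacetylase, stood at 16.5, 4.18 and 16.8 FPKM in the controls against 5.41, 4.8 and 4.42 FPKM in the IGF1 libraries (-1.002, adjusted p = 0.139). In Hdac6, control replicate 2 was the lowest of the 6 libraries, so the groups overlapped. The class IIa enzyme Hdac4 was at 3.87 to 4.1 FPKM in the controls against 5.23 to 5.48 FPKM in the IGF1 libraries, which did not overlap (0.36, adjusted p = 0.0523). Without control replicate 2 the log2 fold changes were 1.46 for Hdac11, -1.59 for Hdac6 and 0.38 for Hdac4. Hdac8 (-0.51, adjusted p = 0.102), Hdac10 (-0.32, adjusted p = 0.18), Sirt4 (0.07, adjusted p = 0.581) and Sirt5 (0.09, adjusted p = 0.58) overlapped between the groups, and Hdac9 stayed under 1 FPKM and was not tested.

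Because Hdac1 and Hdac2 act within complexes, the other subunits were examined next. Of 15 SIN3 genes limma called 3, against 6.61% of all genes. Rbbp4 and Rbbp7, histone-binding chaperones that SIN3 shares with NuRD, fell. Rbbp7 stood at 389, 137 and 390 FPKM in the controls against 91.1, 97.2 and 91.8 FPKM in the IGF1 libraries (log2 fold change -1.55, SE 0.42, adjusted p = 0.0498). Rbbp4 stood at 76.4, 39.4 and 77.6 FPKM and then at 26.1, 26.1 and 25.2 FPKM (-1.22, SE 0.27, adjusted p = 0.0412). Ing2, a reader of methylated histone H3, rose from 8.65, 14.3 and 8.25 FPKM to 21, 23.7 and 22.4 FPKM (1.07, SE 0.21, adjusted p = 0.0369). In all 3 genes every IGF1 library lay outside the range of the controls, as it did below them in 37.4% and above them in 21.9% of all genes. With control replicate 2 left out, log2 fold changes were -2.05 for Rbbp7, -1.54 for Rbbp4 and 1.30 for Ing2. Limma then called 2 SIN3 genes higher and 3 lower, against 12.3% and 20.6% of all genes. The median of the 15 genes was 0.15, against -0.18 over all genes. Without control replicate 2 these medians were 0.30 and -0.24. The Rbbp7 call was marginal, since under 9 of the other settings (pseudocounts, filters, scalings and no variance trend) its adjusted p lay between 0.0502 and 0.062. Rbbp4 was short of 2-fold after 75th percentile scaling (-0.97) and removal of length and GC trends (-0.87), and missed the adjusted p after scaling to a common sum (0.0506). Ing2 was short of 2-fold with a pseudocount of 5 (0.85) and after scaling to a common sum (0.73). The scaffold Sin3a was at 14.5 to 16.2 FPKM in the controls against 12.9 to 13 FPKM in the IGF1 libraries (-0.20, adjusted p = 0.139).

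Of the 10 NuRD genes listed apart from these, limma called 0 (6 at an unadjusted p under 0.05, and 0 called by limma-voom). Without control replicate 2 it called 5 higher and 2 lower, against 12.3% and 20.6% of all genes. The median log2 fold change of the 10 NuRD genes was 0.65, and 0.99 without control replicate 2. The smallest adjusted p was that of Chd3, a remodelling ATPase of the complex, at 2.32, 12.4 and 2.42 FPKM in the controls against 19.2, 18.4 and 17.3 FPKM in the IGF1 libraries (1.85, adjusted p = 0.0553, and 2.52 without control replicate 2). The subunit genes differed in direction, which was noticed after their values were seen. The MTA scaffolds, which hold the catalytic subunits, were an example: Mta1 was at 3.7, 9.91 and 4.04 against 12.6, 11.1 and 11.5 FPKM (0.996, adjusted p = 0.0667, and 1.38 without control replicate 2). Mta2, the most abundant of them, was at 84.8, 44.3 and 84.5 against 41.3, 38.3 and 41.5 FPKM (-0.74, adjusted p = 0.0728, and -1.05 without control replicate 2).

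Of 13 CoREST and MiDAC genes limma called 0, with 7 at an unadjusted p under 0.05 and 0 called by limma-voom. Hmg20b, a DNA-binding subunit of CoREST, came closest, at 21.7, 30.6 and 22.6 FPKM in the controls against 48.6, 45.4 and 45.6 FPKM in the IGF1 libraries (log2 fold change 0.89, adjusted p = 0.0318, short of 2-fold). Of 5 genes of the NCoR complex, in which Hdac3 works, limma called 0 (3 at an unadjusted p under 0.05, and 0 by limma-voom). Tbl1x, a scaffold subunit, was at 17.4, 13.1 and 18.3 FPKM in the controls against 10.3, 10.2 and 10.8 FPKM in the IGF1 libraries (-0.58, adjusted p = 0.0476). All 3 IGF1 libraries of Tbl1x lay below the controls, as they did for Hdac3. Without control replicate 2 the log2 fold changes were 1.04 for Hmg20b and -0.72 for Tbl1x, and limma called 2 higher and 1 lower of the CoREST and MiDAC genes and 2 higher of the NCoR genes. Quantile normalization, 75th percentile scaling and median ratio scaling each gave 1 CoREST and MiDAC gene called higher. Quantile normalization also gave 1 NCoR gene called higher.

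Histone acetyltransferases oppose these enzymes. Of 13 listed, limma called 0 (6 at an unadjusted p under 0.05) and limma-voom called 1 higher. The median log2 fold change was 0.48, and 0.65 without control replicate 2. Hat1, which acetylates newly made histone H4, had the smallest adjusted p, at 142, 115 and 143 FPKM in the controls against 76.8, 78.5 and 78.8 FPKM in the IGF1 libraries (-0.76, adjusted p = 0.0307, short of 2-fold). With control replicate 2 left out Hat1 was at -0.86, and 2 acetyltransferase genes were called higher and 1 lower. Of 9 bromodomain readers of acetylated lysine, limma called Brpf3, a scaffold of acetyltransferase complexes, which rose from 0.623, 1.98 and 0.722 FPKM to 3.35, 3.26 and 3.26 FPKM (log2 fold change 1.08, SE 0.24, adjusted p = 0.0417), and was the only reader called without control replicate 2 (1.36). At its low level the value of Brpf3 depended on the pseudocount, at 1.66 with 0.1 and 0.45 with 5, and it was at 0.71 with length and GC trends removed, so the call was lost under the last 2 of these. Of the MEF2 factors bound by class IIa enzymes, 3 of 4 could be tested and 0 were called (2 at an unadjusted p under 0.05, and 0 by limma-voom). Without control replicate 2, too, 0 were called. Mef2d had the smallest adjusted p (log2 fold change 0.56, adjusted p = 0.0612, and 0.75 without control replicate 2), at 18.9, 29.3 and 19.9 FPKM in the controls against 33.1, 34.4 and 32.4 FPKM in the IGF1 libraries.

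Of 12 tested genes that make and use NAD, the cosubstrate of sirtuins, limma called 1. In this list 10 of 12 log2 fold changes were below 0, as were 59.6% over all genes, and the median was -0.46 against -0.18 over all genes. Without control replicate 2 these medians were -0.60 and -0.24. The list's median was -0.21 after quantile normalization, -0.22 after 75th percentile scaling and -0.25 after median ratio scaling. The called gene, Nampt, the rate-limiting enzyme of NAD salvage, fell from 28.2, 18.7 and 29.7 FPKM in the controls to 11.7, 12.5 and 11.3 FPKM in the IGF1 libraries (log2 fold change -1.02, SE 0.19, adjusted p = 0.0363). With a pseudocount of 5, quantile normalization, 75th percentile or median ratio scaling, or removal of length and GC trends, its log2 fold change lay between -0.84 and -0.54, short of 2-fold. It was -1.22 without control replicate 2, and limma called 1 NAD gene higher and 4 lower. Nampt lay below every control in every IGF1 library, as did 37.4% of all genes, while 4 of the 5 sirtuins described lay above, as did 21.9%. Of 8 tested substrates and partners of sirtuins studied in HSCs, limma called 0 (6 at an unadjusted p under 0.05, and 0 by limma-voom). The gene of p53, Trp53, a Sirt1 substrate, was at 232, 144 and 233 FPKM in the controls against 111, 115 and 109 FPKM in the IGF1 libraries (-0.82, adjusted p = 0.0468, short of 2-fold). It was at -1.05 without control replicate 2, and 3 of the 8 were called lower.

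**Figure D5:**
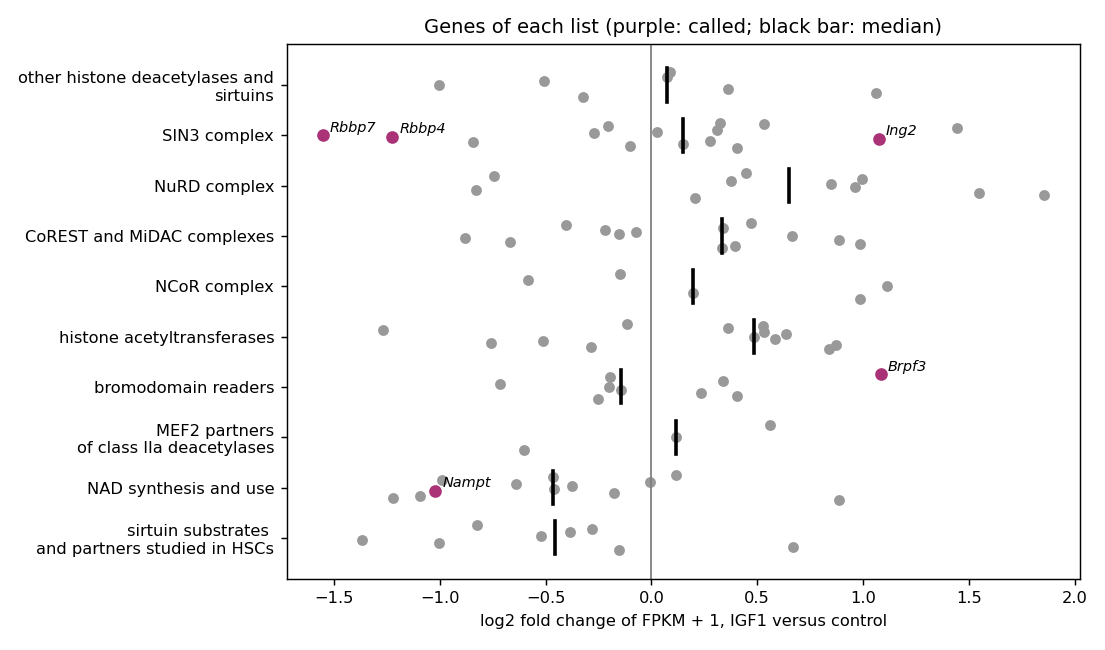
Log2 fold change of FPKM + 1 in IGF1 versus control libraries (x axis) of each tested gene of the 10 lists, with called genes in purple and named and a black bar at the median of each list. Rbbp4, Rbbp7 and Nampt lie left of 0 and Ing2 and Brpf3 right of it, and the medians run from -0.46 for NAD synthesis and use to 0.65 for NuRD.

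The lists hold 102 genes found in the files, of which 95 were tested. With all 6 libraries 5 of them (5.26%) were called, 2 higher and 3 lower, against 6.61% of all genes. There were 31 (32.6%) without control replicate 2, against 32.9% of all genes, so in neither fit was the share above that of all genes. With any other library left out limma called 0 of them, with 18 to 23 at an unadjusted p under 0.05, as had 2982 to 3205 of all 10449 genes.

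Markers of several other cell types also differed between libraries, in most lists with control replicate 2 apart from the other controls. Of 13 neutrophil and monocyte genes, 11 reached 1 FPKM in at least 3 libraries, and their sum was 3630, 5810 and 3680 FPKM in the controls against 5840 to 5870 FPKM in the IGF1 libraries. Within this list granule genes ran in both directions, with Elane at 92.8, 576 and 92.4 against 692 to 709 FPKM and S100a8 at 284, 163 and 285 against 55 to 72.8 FPKM. Of 8 B cell genes, 6 reached that level (sum 111 to 423 FPKM in the controls against 390 to 406 FPKM in the IGF1 libraries). The 5 progenitor genes summed to 785 to 1190 and 697 to 715 FPKM. The 8 erythroid genes, 6 of them at that level, summed to 36.2, 103 and 39.1 FPKM in the controls and 48.6 to 55.4 FPKM after IGF1, with control replicate 2 above all other libraries. The 7 megakaryocyte genes, 5 at that level, summed to 54.1, 76.5 and 54.6 FPKM in the controls and 92.4 to 103 FPKM after IGF1, with control replicate 2 between the groups. The T and NK cell sum of 361 to 790 FPKM was nearly all Nkg7, and only 3 of its 8 genes reached 1 FPKM in at least 3 libraries. Among stromal and endothelial genes 1 of 8 did (Pecam1). Ly6g, Cd8a, Ncr1, Cdh5 and Col3a1 were at 0 in all 3 IGF1 libraries, Ly6g was at most 0.2 FPKM in the controls, and Cd3e was at most 0.206 FPKM. The part of these other cells in the differences of histone deacetylases and sirtuins was not tested.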

How the data were processed

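RNA-seq of sorted BM HSCs was analysed in 3 control and 3 IGF1 libraries, grouped by the treatment label. The dose and day come from the methods of the study. The study names fastp and RSEM for these libraries and DESeq2 for the authors' own test, whereas the submitters' processing notes name fastp, HISAT2, StringTie and GRCm38 (mm10), so the quantifier is uncertain. The authors deposited 1 FPKM value per gene symbol and library; the unit was read from the values, since no source states it. Whole reads could be recovered from the steps of the values for 99.85% of 15640 genes above 0 (within 0.01 of a whole number), and gave depths of 10298069 to 15090863 reads, whose absolute scale is approximate. The most alike libraries still differed by more than counting noise (chi-squared per gene 1.51).

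The 10449 genes that reached 1 FPKM in 3 or more libraries were tested with log2(FPKM + 1) as the value, which makes changes of low genes look smaller, using limma 3.58.1 in R 4.3.3 (lmFit, eBayes with trend), and p-values were adjusted over all of them by Benjamini-Hochberg. Calls needed more than a 2-fold difference and an adjusted p under 0.05. Adjusted p-values without another name are from this fit, and those without control replicate 2 from the same fit to 5 libraries. The members and lists were chosen with earlier results of these data known. Named are all members, the rest of both families, of each other list up to 3 called genes (or the 1 gene with the smallest adjusted p), and overlapping or copied genes. Sin3a, Mta1, Mta2 and the marker genes were added after their values were seen. Locations come from GENCODE M21 and upstream sequence from RefSeq (GRCm38.p6). Alternatives were other pseudocounts, filters, scalings, no variance trend, library weights, a replicate block, each library left out, removal of length and GC trends (mgcv 1.9.3), adjusted p alone, and limma-voom on recovered reads. Scaling to a common sum was chosen after seeing the data.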

Additional observations from a re-analysis of the deposited data

How the results depend on the processing

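Of all genes, 691 were called, against 223 with a pseudocount of 5, 374 with no filter, 420 with length and GC trends removed, 1053 by limma-voom on recovered reads, 2130 at an adjusted p alone and 3435 with library weights. Leaving out 1 library gave 0 to 3438, the latter without control replicate 2. Of the 10 histone deacetylases and sirtuins, 2 were called, against 1 with no filter, 75th percentile scaling, median ratio scaling or a common sum, 0 with quantile normalization or length and GC trends removed, 4 with library weights and 0 to 4 with 1 library left out. Of the pathway genes, 5 were called, against 1 with a pseudocount of 5 or with length and GC trends removed, 3 with a minimum of 5 FPKM, 75th percentile scaling or a common sum, 14 at an adjusted p alone, 31 with library weights and 0 to 31 with 1 library left out. The median log2 fold change of the 10 genes, 0.15, moved to 0.28 with a minimum of 5 FPKM, 0.32 with quantile normalization, 0.38 with 75th percentile scaling, 0.35 with median ratio scaling, -0.21 with a common sum and 0.20 by limma-voom. Log2 fold changes turned for Hdac5 (-0.24 with a common sum, -0.015 with library weights, -0.028 to 0.21 with 1 library left out, the lowest without control replicate 2, -0.28 with length and GC trends removed), Sirt1 (0.19 with those trends removed), Sirt2 (-0.18 with a common sum) and Sirt7 (-0.038 with a common sum). The causes were not tested. No ratio between 2 genes changed sign in the alternatives run. With length and GC trends removed, however, Sirt6 to Sirt1 shrank from 0.79 to 0.03 and Hdac3 to Hdac1 from -0.39 to -0.10. Sirt7 to Sirt1 had an exact permutation p of 0.2 without IGF1 replicate 1 or 3.

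With replicate number as a block, limma called 0 genes (4791 at an unadjusted p under 0.05), 0 of the 10 genes (5 at an unadjusted p under 0.05) and 0 pathway genes. Deviations from the group means of same-numbered libraries correlated at -0.057, -0.05 and 0.006. Control replicate 2 dominates the deviations of the controls, so these values cannot show whether the numbers pair the libraries. With a library other than control replicate 2 left out, limma called 0 genes (2982 to 3205 at an unadjusted p under 0.05). Depth limits Sirt1 most, at 66 to 119 reads per library.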
